A study of Rattus norvegicus with 21 samples.

Results

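In adult rats, 55 of 30404 measured transcripts were raised above sham in both microglia and macrophages after a transient stroke, in both of the study's sets of libraries. They were chosen by their levels. CPM is the expected count per 1000000 transcript-assigned counts of a library, and the level of a group is its mean CPM plus 1. A member had a level of at least 20 in microglia after middle cerebral artery occlusion (MCAO) in both sets, at least 4 times that of sham microglia of the same set, and a macrophage level between 0.5 and 2 times the microglial level in both sets. Of the transcripts, 21637 were detected in at least 1 library, 6442 reached the level in microglia of both sets and 90 of these also reached the fold in both. Of those 90, 55 met the macrophage range in both sets, 27 met it in the 7D set only, 2 in the 24h set only and 6 in neither.

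Cells were taken from the operated hemisphere of adult rats, whose strain is spelled "Winstar" in the labels. The middle cerebral artery was blocked for 90 min and then reopened in MCAO rats, while sham rats had neck arteries isolated and ligated on the same side. The cells were sorted on CD11b, a surface protein of myeloid cells, and CD45, which is low on microglia and high on macrophages that enter from blood. The 6 groups were named by library title as 7D macrophages, 7D microglia and 7D sham microglia (4 libraries each), and 24h macrophages, 24h microglia and 24h sham microglia (3 each). There is no sham macrophage group, so macrophages were set against sham microglia. The protocol names 4 to 6 rats without saying which gave which library or whether rats were pooled, so p-values measure only the spread between these libraries. As these are bulk samples, fewer cells of a type and less RNA per cell cannot be told apart.

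Several labels disagree. The cell fraction field of 24h microglia replicate 3 reads CD45high and that of 24h macrophage replicate 3 reads CD45low, the opposite of their titles. All 12 libraries of the 7D set carry a treatment field of 24 h, and the 4 titled 7D macrophages have a microglial source name and a CD45low fraction. Sham libraries carry a treatment field naming a PBS injection. The labels therefore leave the time of the 7D set and the sort of its macrophages unsettled, and "24h" and "7D" below are names of sets of libraries. Without both 24h replicates 3, the rule gave 56 transcripts, 51 of them among the 55. With those 2 libraries exchanged, as their fraction field reads, it gave 87, of which 52 were among the 55. For the 24h replicates 3, the measured levels went with the titles. Chi3l1, an activation marker of macrophages and 1 of 2 genes named in the files, had 120.2, 94.8 and 168 CPM in the 24h libraries titled macrophages and 49.9, 5.79 and 13.5 CPM in those titled microglia, in order of replicate number. Over all transcripts, chi-square over its degrees of freedom between macrophage replicate 3 and the other 24h macrophages was 9.06 and 18.8, against 128 and 180.0 to 24h microglia replicates 1 and 2. For microglia replicate 3 it was 13.9 and 11.3 to the other 24h microglia, against 146 and 98.9 to 24h macrophages. In the 7D set Chi3l1 was 4.45, 7.68, 7.78 and 33.9 CPM in macrophages and 2.32, 2.19, 3.70 and 1.95 CPM in microglia. Sham microglia of that set had 17.7, 13.5, 7.34 and 13.9 CPM, so Chi3l1 did not set 7D macrophages apart from them. The sort of the 7D macrophages was not tested further. None of the transcript identifiers could be paired with a gene name (0 found among 47357 rat genes), so sorted cells could not be checked against lists of marker genes beyond Chi3l1 and Nos2, and no roles of individual members can be given.

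Microglia are the resident macrophages of the brain. After ischaemia they leave their surveying state, take up debris and release signals, while monocytes enter from blood and become macrophages in the same tissue. In that setting both cell types are known to turn on overlapping programmes of phagocytosis, lipid handling and inflammation, which gives the background for looking at transcripts that both carry.

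The 55 members took a small part of the RNA, and a larger one after MCAO than in sham microglia. The rule that chose them fixed this direction, so the sums are a description. Summed, they held 0.685% ± 0.0757 of the counts of a library in 7D macrophages and 0.590% ± 0.0900 in 7D microglia, against 0.0833% ± 0.0125 in 7D sham microglia (SD, n = 4 each). In the 24h set they held 0.520% ± 0.0185 in macrophages and 0.544% ± 0.115 in microglia, against 0.0619% ± 0.000414 in sham microglia (SD, n = 3 each). Total expected counts were 11115359 to 15401910 in the 7D libraries and 6923630 to 9668961 in the 24h libraries. The 5 members highest in CPM held 44.8% of the summed mean CPM of the 55 over the MCAO libraries, so a few members carry much of these sums. The lowest count of any member was 90 in an MCAO library and 1 in a sham library, and no member was at 0 in any sham library. Fold changes of the members scarcest in sham microglia are therefore limited by the few sham counts.

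The values that chose the members are given here as a description. Against sham, the microglial level was 4.00 to 17.6 times as high in the 7D set (median 7.45) and 4.04 to 39.5 times in the 24h set (median 10.2). For macrophages it was 3.09 to 21.0 times (median 6.38) in the 7D set and 3.26 to 37.5 times (median 7.31) in the 24h set. Over the 6884 transcripts at least as abundant as the scarcest member, the same 4 medians were 1.01, 0.997, 0.972 and 1.03. A microglial fold of at least 10 was reached by 8 members in the 7D set, 28 in the 24h set and 6 in both, and 6 stayed under 5 in both. edgeR's quasi-likelihood test with Benjamini-Hochberg adjustment called all 55 higher than sham in each of these 4 comparisons. Over all transcripts tested, 28.4% were called higher in 7D macrophages, 22.9% in 7D microglia, 36.4% in 24h macrophages and 24.8% in 24h microglia. The rule fixed these counts, and nothing is read from them.

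Most limits of the rule had transcripts close on both sides. The member nearest to the 4-fold limit stood at 4.00 in the 7D set and 4.04 in the 24h set, and the nearest transcript that failed only that limit stood at 3.91 and 3.96. The fold in the 7D set alone excluded 24 transcripts and that in the 24h set 9. Near the level of 20, the nearest pair stood at 20.1 inside and 19.6 outside in 7D microglia, and at 21.3 inside and 17.9 outside in 24h microglia. The macrophage range was closest in the 24h set, with 0.537 inside against 0.479 outside at the low end and 1.95 against 2.09 at the high end. In the 7D set the members nearest to these limits stood at 0.555 and 1.90, with 2.24 as the nearest value outside at the high end and none outside at the low end.

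**Figure D1:**
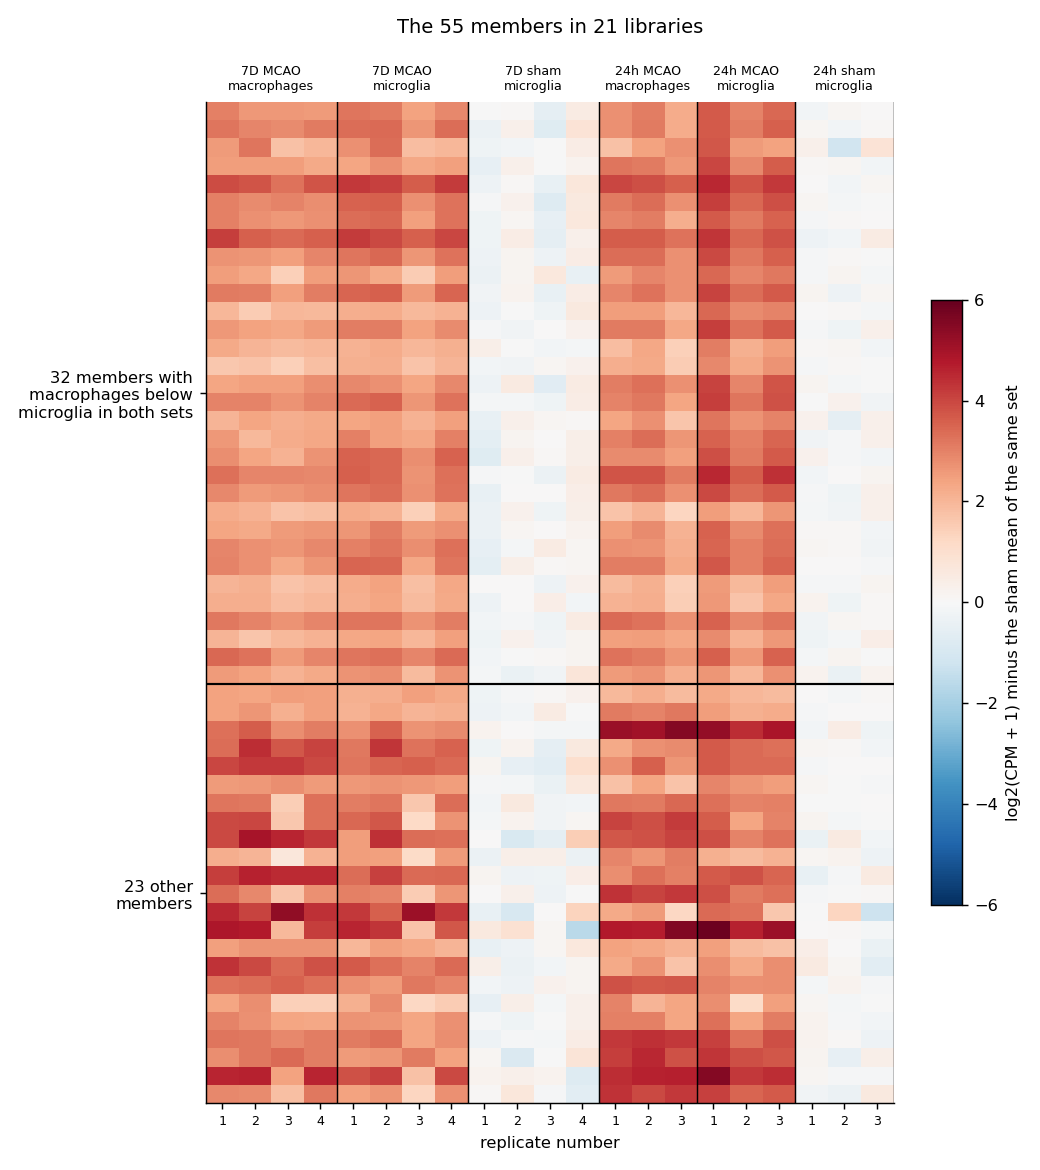
Level of each of the 55 members (rows) in each of the 21 libraries (columns, by group and replicate number), as log2(CPM + 1) minus the mean of sham microglia of the same set, on a colour scale centred on 0. The upper 32 rows had lower means in macrophages than in microglia in both sets and the lower 23 rows did not; 7D microglia replicate 3 is the palest of its group in 45 rows and 24h microglia replicate 1 the darkest of its group in 52.

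The member with the highest CPM was ENSRNOT00000017271, a transcript of 1705 nt. Its CPM was 894, 849.7, 933 and 908 in 7D macrophages and 735, 759, 909 and 813 in 7D microglia, against 139, 158, 172 and 195 in 7D sham microglia. In the 24h set it was 477, 552 and 455 in macrophages and 581, 481 and 459 in microglia, against 125, 112 and 127 in sham microglia. All MCAO libraries lay above all sham libraries, and every MCAO library of the 7D set lay above every one of the 24h set. The ranges of macrophages and microglia overlapped in both sets. Each 7D macrophage library nevertheless lay above the 7D microglial library of the same number.

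ENSRNOT00000010180 is only 746 nt long and had the highest level per length, with a mean of 1335 TPM (transcripts per 1000000, corrected for length) over the 14 MCAO libraries, against 632 TPM for ENSRNOT00000017271. Its CPM was 602, 696, 490.1 and 627 in 7D macrophages and 471, 553, 456 and 499 in 7D microglia, against 90.7, 100.2, 156 and 108 in 7D sham microglia. The 24h set had 717, 646 and 756 CPM in macrophages and 479, 359 and 384 in microglia, against 77.8, 85.0 and 84.4 in sham microglia. Here the macrophage and microglial libraries were apart in the 24h set. In the 7D set their ranges overlapped, with each macrophage library above the microglial library of the same number.

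ENSRNOT00000023977 (1503 nt, 533 TPM over the MCAO libraries) ranked 3 by CPM and by TPM. Its CPM was 497, 635, 345 and 419 in 7D macrophages and 339, 596, 325 and 358 in 7D microglia, against 58.1, 51.0, 45.2 and 45.2 in 7D sham microglia. The 24h libraries had 644, 575 and 813 CPM in macrophages and 687, 381 and 531 in microglia, against 14.9, 22.8 and 13.6 in sham microglia. The sham libraries of the 7D set were all above those of the 24h set, whereas the MCAO libraries of the 2 sets overlapped. Within the 7D set, each macrophage library lay above the same-numbered microglial library.

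**Figure D2:**
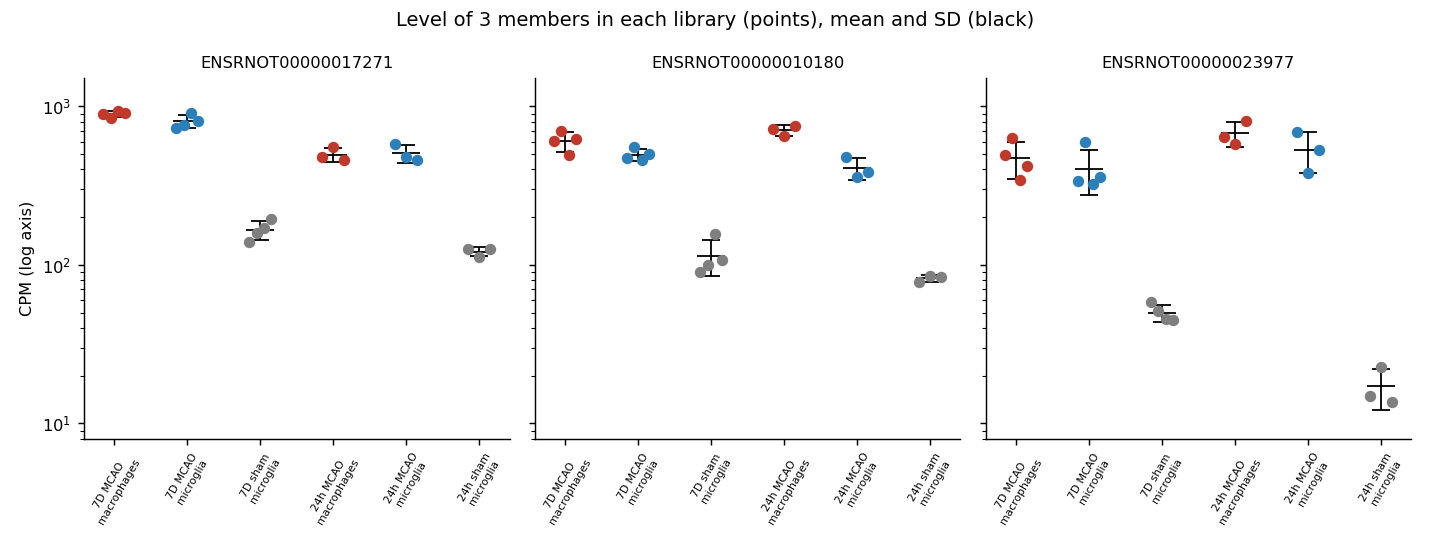
CPM on a log axis of ENSRNOT00000017271, ENSRNOT00000010180 and ENSRNOT00000023977 in each library (points), with group mean and SD (black). Sham microglia lie lowest in both sets, and ENSRNOT00000023977 has a sham mean of 49.9 CPM in the 7D set and 17.1 CPM in the 24h set.

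Other members are described by their size because their identifiers carry no names, and the 4 that follow were picked after their values were seen. By the ratio of levels, each a mean CPM plus 1, a transcript of 1422 nt had the highest microglial fold of the 24h set (39.5). By edgeR a member of 1067 nt had a larger log2 difference from sham, at 7.45 against 6.48. The transcript of 1422 nt had 107, 44.3 and 62.0 CPM in microglia against 0.867, 0.902 and 0.703 CPM in sham microglia. Its 24h macrophages had 47.9, 46.8 and 83.9 CPM. In the 7D set it had 145, 136, 18.0 and 87.5 CPM in macrophages and 116, 97.5, 15.3 and 66.0 CPM in microglia, against 6.42, 8.47, 4.44 and 0.630 CPM in sham microglia. The libraries numbered 3 were the low ones in both 7D MCAO groups.

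In the 7D set, the largest log2 difference of microglia from sham by edgeR was that of a member of 1173 nt (4.76). By the ratio of levels, the highest microglial fold of the 7D set was that of a transcript of 1852 nt (17.6, with 4.46 by edgeR). It had 119, 84.4, 211 and 107 CPM in 7D macrophages and 98.3, 62.3, 181 and 97.9 CPM in 7D microglia, against 2.88, 1.71, 4.27 and 12.3 CPM in 7D sham microglia. Here the libraries numbered 3 were the high ones in both MCAO groups. Levels of the 24h set were 20.5, 24.9 and 9.64 CPM in macrophages and 46.1, 41.8 and 12.6 CPM in microglia, against 3.32, 9.92 and 0.844 CPM in sham microglia, so that 1 macrophage library lay below the highest sham library.

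A transcript of 3953 nt, ranked 4 by CPM, changed its order between the cell groups. It had 517, 1098, 669 and 834 CPM in 7D macrophages and 450.3, 984, 486 and 597 CPM in 7D microglia, against 41.6, 57.8, 34.6 and 74.8 CPM in 7D sham microglia. Its 24h levels were 108, 151 and 162 CPM in macrophages and 292, 241 and 222 CPM in microglia, against 23.5, 22.8 and 19.7 CPM in sham microglia. The macrophage libraries all lay below the microglial libraries in the 24h set. In the 7D set their ranges overlapped, but each macrophage library lay above the microglial library of the same number.

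The longest member, of 9763 nt, had 261, 193, 193 and 185 CPM in 7D macrophages and 301, 278, 171 and 237 CPM in 7D microglia, against 30.4, 32.9, 21.1 and 44.6 CPM in 7D sham microglia. Its 24h levels were 304, 383 and 214 CPM in macrophages and 590.2, 357 and 497 CPM in microglia, against 39.7, 49.6 and 46.3 CPM in sham microglia. Macrophages and microglia overlapped in both sets, and all lay above sham.

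The members were 615 to 9763 nt long with a median of 2529 nt, against 2416 nt for the 6884 transcripts. Expected counts were whole, within 0.001, in every library for 42 members (76.4%), against 75.7% of the 6884, and not whole in 11 or more libraries for 11 members (20%), against 19.6%. A count that is not whole shows that reads were divided between transcripts. This applied in all 21 libraries to 6 members, whose separate levels are uncertain for that reason. Of these, 2 had consecutive identifiers and lengths of 2667 and 2640 nt. Their mean CPM was 707 and 239 in 7D macrophages and 434 and 136 in 7D microglia, against 43.9 and 10.4 in 7D sham microglia. The corresponding means were 149.6 and 54.4 in 24h macrophages and 201 and 84.1 in 24h microglia, against 17.0 and 5.93 in 24h sham microglia.

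Within the range the rule allows, most members had a lower mean in macrophages than in microglia in both sets, and more members did so in the 24h set. The median ratio of macrophages to microglia was 0.923 in the 7D set, with 33 of 55 below 1 (60%), and 0.734 in the 24h set, with 42 below 1 (76.4%). For the 6884 transcripts the medians were 0.961 in the 7D set (59.6% below 1) and 1.03 in the 24h set (46.6% below 1). The ratio was higher in the 7D set than in the 24h set for 40 members. By edgeR with Benjamini-Hochberg adjustment, 2 members were called higher and 0 lower in 7D macrophages than in 7D microglia, where 6.51% of all transcripts were called higher and 4.48% lower. An unadjusted p under 0.05 was found for 7 members (12.7%) and for 25.9% of all transcripts. DESeq2 called 5 members and 2098 transcripts in all. In the 24h set 6 members were called higher in macrophages and 21 lower, where 24.8% of all transcripts were called higher and 24% lower. The rule bounded this ratio, so the counts are a description. The 27 calls of the 24h set became 9 without both replicates 3 and 0 when those libraries were exchanged. Over all transcripts the calls were 6382, 4256 without both and 0 when exchanged. Without 24h macrophage replicate 3 alone, 16 members were called, and 5328 transcripts in all. The 2 calls of the 7D set became 0 without 7D microglia replicate 4 or without 7D macrophage replicate 2.

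**Figure D3:**
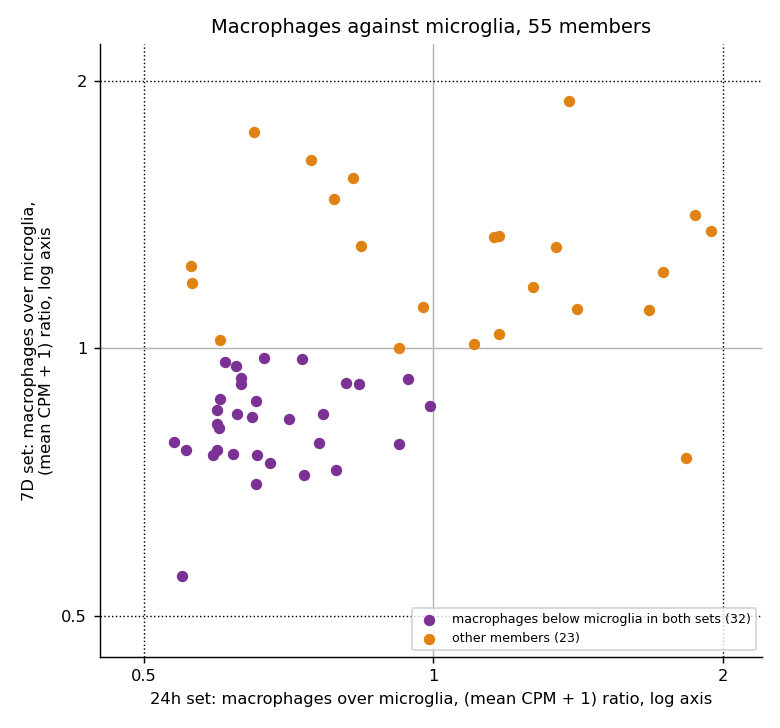
Ratio of macrophage to microglial level, as (mean CPM + 1) ratios on log axes, for each of the 55 members in the 7D set (vertical) and the 24h set (horizontal). The 32 members below 1 in both sets and the 23 others are coloured apart, and the rule confines all points to the square between 0.5 and 2.

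By the order of the means, 32 members were lower in macrophages than in microglia in both sets. Another 12 were higher in both, 10 were higher in the 7D set and lower in the 24h set, and 1 was the reverse. This split was made after the values were seen and its groups are described with no test. The 32 were scarcer per length, with a median of 16.5 TPM (5.49 to 118), against 68.4 TPM (11.6 to 1335) for the other 23. In the 7D set both subsets had like microglial folds over sham, with medians of 7.35 for the 32 and 7.46 for the 23, and in the 24h set 10.3 and 8.62. With the 2 libraries of conflicting labels left out, 29 members were lower in macrophages in both sets, and 12 were when they were exchanged.

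Summed over the 32, the level was 1119, 1003, 841 and 947 CPM in 7D macrophages and 1309, 1349, 833 and 1192 CPM in 7D microglia, against 115, 149, 119 and 187 CPM in 7D sham microglia. The 24h sums were 1332, 1530.0 and 999 CPM in macrophages and 2479, 1449 and 2015 CPM in microglia, against 167, 159 and 186 CPM in sham microglia. The mean of 7D microglia lay below that of 24h microglia for 29 of the 32. The same held for 7D against 24h macrophages in 26 and for 7D against 24h sham microglia in 24.

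Summed over the 23, the level was 5737, 6819, 5135 and 5801 CPM in 7D macrophages and 4407, 5758, 4098 and 4648 CPM in 7D microglia, against 605, 666, 667 and 823 CPM in 7D sham microglia. The 24h sums were 3812, 3881 and 4059 CPM in macrophages and 4205, 2956 and 3208 CPM in microglia, against 456, 455 and 432 CPM in sham microglia. For these, the 7D mean was below the 24h mean in 9 of 23 for microglia, 10 for macrophages and 1 for sham microglia.

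**Figure D4:**
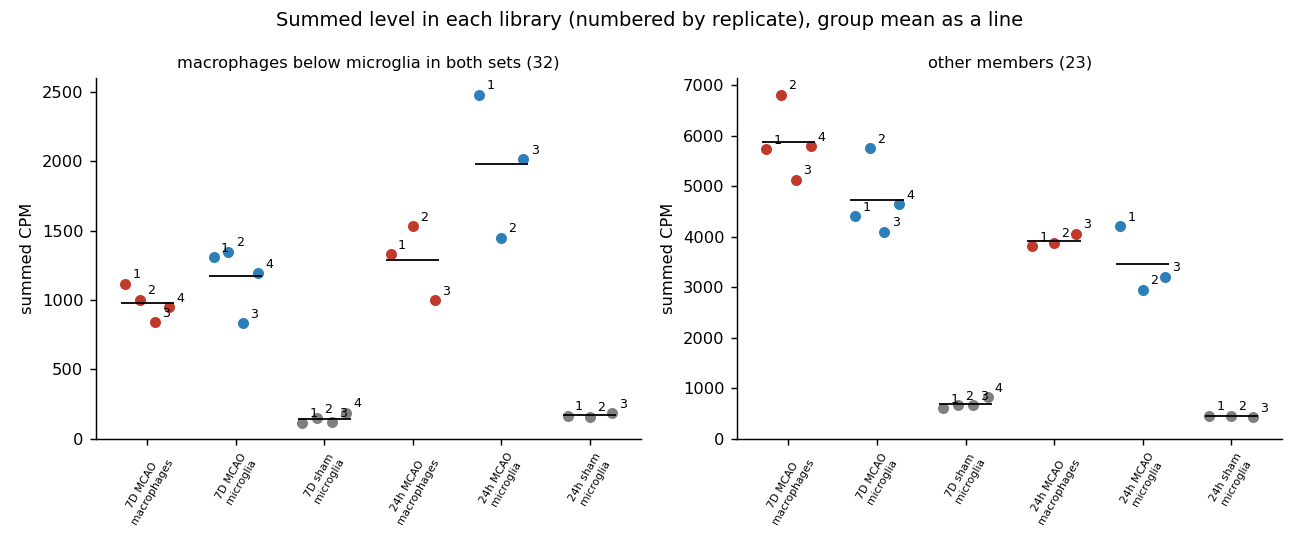
Summed CPM of the 32 members that were lower in macrophages than in microglia in both sets and of the 23 others, in each library (numbered by replicate), with the group mean as a line. For the 32, 24h microglia lie between 1449 and 2479 CPM and 7D microglia between 833 and 1349 CPM; for the 23, every 7D sham library lies above every 24h sham library.

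Members went up and down together between replicates of a group. On the log2(CPM + 1) scale, deviations from the group mean over the 14 MCAO libraries had a mean pairwise correlation of 0.464 among the 55 members, against 0.0234 among the 6884 transcripts. It was 0.754 among the 32 and 0.229 among the 23. The transcripts of a library share its depth and preparation, so these are descriptions. Leaving out 1 library at a time gave 0.695 to 0.782 for the 32, and 0.13 to 0.257 for the 23, the lowest without 24h microglia replicate 1. The median CV within MCAO groups was 22.1% for the members and 8.89% for the 6884 transcripts.

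The libraries behind this were the same for many members. In the 24h set, microglia replicate 1 was the highest of its group in 52 of 55 members and microglia replicate 2 the lowest in 46, and macrophage replicate 3, one of the 2 with conflicting labels, was the lowest of its group in 39. In the 7D set, replicate 3 was the lowest macrophage library in 33 members and the lowest microglial library in 45, and in all 33 it was the lowest in both. Over the 55 members, the deviations of same-numbered 7D macrophages and microglia correlated at 0.867, 0.826, 0.917 and 0.74. For the 24h set the values were -0.0291, 0.29 and -0.159.

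Whether the response differed between the sets was tested as the difference of the 2 contrasts with sham, which the rule bounded from below in each set but did not compare. Set and time go together with depth and fragment length, and their parts in a difference cannot be told apart. Mean fragments were 178 to 193 nt long in the 7D libraries and 157 to 171 nt in the 24h libraries. For microglia, edgeR with Benjamini-Hochberg adjustment over 14252 transcripts called 1 member, with a smaller response in the 7D set, and 0 with a larger one; 1.71% of all transcripts were called smaller and 0.47% larger. An unadjusted p under 0.05 was found for 11 members (20%) and for 15.1% of all transcripts. DESeq2 called 6 members and 688 transcripts in all. The log2 difference was below 0 for 46 of 55 members and ranged from -3.24 to 1.58 with a median of -0.25. It was below 0 for 54.1% of all transcripts, with a median of -0.03. The rule used the 4 group means in this difference, and its 4-fold limit removed 24 transcripts by the 7D fold alone and 9 by the 24h fold alone, so nothing is read from the members' share of signs.

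**Figure D5:**
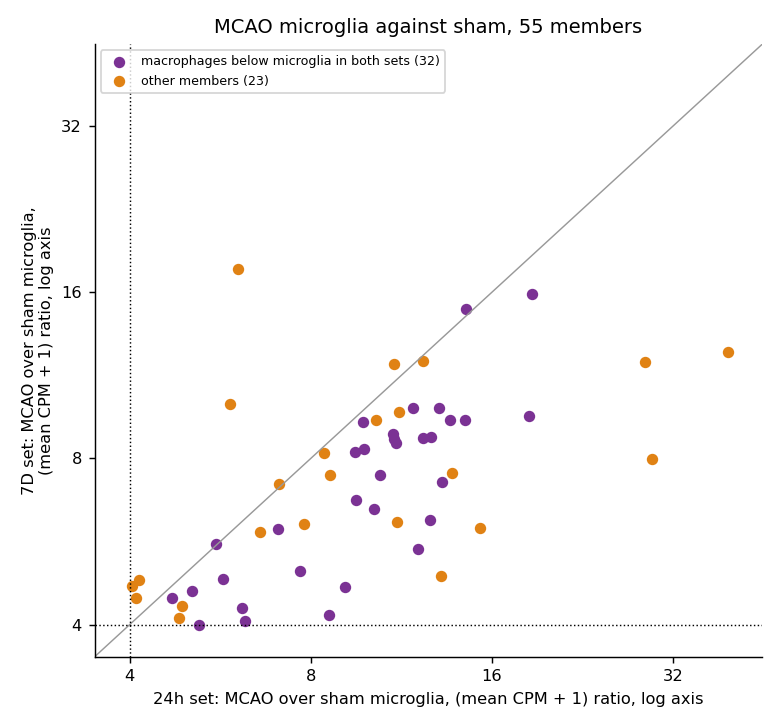
MCAO over sham microglia as (mean CPM + 1) ratios on log axes, for each of the 55 members in the 7D set (vertical) and the 24h set (horizontal), with the 32 and the 23 members coloured apart. The 7D ratio exceeds the 24h ratio for 9 members, and the rule admits no ratio under 4 on either axis.

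The called member was ENSRNOT00000023977, and it is named for that reason. As the rule used the group means in these differences, the p-values of ENSRNOT00000023977 are a description. Its microglial response was smaller in the 7D set by a log2 difference of -1.94 ± 0.37 (SE; edgeR, adjusted p = 0.00801), and the adjusted p ran from 2.86e-05 to 0.0356 over 28 alternatives. Its 7D sham level was higher than its 24h sham level by 1.60 ± 0.28 on the log2 scale (SE; edgeR, adjusted p = 0.00597), and this contrast shares the sham libraries with the first. The sham call was lost without 24h sham replicate 1 (adjusted p = 0.0525) or 3 (adjusted p = 0.0548), with a range of 1.15e-06 to 0.0548 over 27 alternatives. In macrophages, which were set against the same sham libraries, the difference was -1.99 ± 0.37 (SE; edgeR, adjusted p = 0.000689; range 1.4e-06 to 0.0746). That call was lost when the libraries with conflicting labels were exchanged.

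For macrophages, 5 members had a larger response in the 7D set and 4 a smaller one by the same edgeR test (9.09% and 7.27% of the members), where 12.4% of all transcripts were called larger and 12.6% smaller. The rule bounded the macrophage level and used the sham level in each set, so these counts are a description. The 9 calls became 4 without both libraries of conflicting labels and 0 when they were exchanged, where 18 transcripts were called in all. They became 3 without 24h macrophage replicate 1, 5 without 24h macrophage replicate 3, 4 without 24h sham replicate 1 or 2, and 5 without 24h sham replicate 3 or 7D sham replicate 1.

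ENSRNOT00000017271 was among those with a larger macrophage response in the 7D set, by 0.47 ± 0.15 on the log2 scale (SE; edgeR, adjusted p = 0.0343; range 0.0103 to 0.262). Of 28 alternatives, 19 kept that call, and those that ended it are listed with the limits. Its microglial difference was 0.20 ± 0.15 (SE; edgeR, adjusted p = 0.613). For ENSRNOT00000010180 the differences were -0.64 ± 0.25 in macrophages (SE; edgeR, adjusted p = 0.0719) and -0.21 ± 0.25 in microglia (SE; edgeR, adjusted p = 0.788). Neither passed the threshold.

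Sham microglia themselves differed between the sets for some members. By edgeR with Benjamini-Hochberg adjustment, 5 of 55 (9.09%) were higher in 7D than in 24h sham microglia and 0 were lower, where 1.67% of all transcripts were called higher and 1.04% lower. The rule used the sham level of each set as the base of a fold, so these counts are a description. An unadjusted p under 0.05 was found for 19 members (34.5%) and for 17.9% of all transcripts. DESeq2 called 11 members and 835 transcripts in all. ENSRNOT00000017271 was one of the 5, at 0.52 ± 0.11 on the log2 scale (SE; edgeR, adjusted p = 0.0195; range 0.000781 to 0.0806), and ENSRNOT00000010180 was not, at 0.54 ± 0.18 (SE; edgeR, adjusted p = 0.116). The count was 0 without 24h sham replicate 1 or 3 and 2 without 24h sham replicate 2. The log2 difference was above 0 for 33 of the 55 members (60%) and for 57.6% of all transcripts, with medians of 0.07 and 0.05. By the split made after seeing the values, it was above 0 for 22 of the 23, with a median of 0.77, and its median among the 32 was -0.14.

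Chi3l1 and Nos2, used as activation markers of macrophages, were the only named genes in the files and are not members. Chi3l1 had 13.4 ± 13.7 CPM in 7D macrophages and 2.54 ± 0.790 in 7D microglia, against 13.1 ± 4.29 in 7D sham microglia (SD, n = 4 each), and 128 ± 37.0 CPM in 24h macrophages and 23.1 ± 23.6 in 24h microglia, against 15.8 ± 4.50 in 24h sham microglia (SD, n = 3 each). Without 7D macrophage replicate 4 the mean of that group was 6.63 CPM, and without 24h microglia replicate 1 that of its group was 9.63 CPM. Nos2 had 6.13 ± 11.3, 0.128 ± 0.149 and 2.46 ± 1.58 CPM in the same 7D groups and 20.2 ± 13.6, 4.26 ± 4.66 and 1.88 ± 1.48 CPM in the same 24h groups. The 7D macrophage mean of Nos2 rested on replicate 4 and was 0.490 CPM without it, and the 24h microglial mean was 1.64 CPM without replicate 1.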

How the data were processed

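The submitters' processing notes name bcl2fastq, TopHat2, RSEM and build rn5 for these polyadenylated, strand-specific libraries; their versions, roles and annotation are not given in the sources used here. The authors deposited 1 file per library with RSEM expected counts (estimated reads per transcript, not normalised) and TPM (per 1000000 transcripts, corrected for length), per the file headers. Lines for Chi3l1 and Nos2 sit 2 columns to the right of their headers and were read from there; whether their reads are also in transcripts of those genes is unknown. They stayed out of library totals.

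CPM and TPM of the members were taken from these values. After rounding the expected counts, edgeR 4.0.16 was run under R 4.3.3 (quasi-likelihood F-test, TMM, filterByExpr with minimum count 10 and minimum total 15, Benjamini-Hochberg over all transcripts tested, threshold 0.05), within a set on 13384 (7D) or 13081 (24h) transcripts and between sets on 14252; all 55 members passed the filter. Standard errors derive from the F statistic. DESeq2 1.42.0 and limma 3.58.1 (voom) were alternatives, with other scalings, filters, groupings and single libraries left out. The script was tested on simulated data. By group means of log2 TMM factors over all 21 libraries, TMM shifted 7D macrophages against sham by 0.128 relative to total-count scaling. Other contrasts with sham shifted by at most 0.086. Tests within a set used TMM factors of that set alone.

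All pairs of replicates differed by more than sampling noise (chi-square over its degrees of freedom from 5.57 to 60.2). Same-numbered macrophage and microglial libraries deviated together over transcripts (r from 0.464 to 0.616 in the 7D set and 0.261 to 0.345 in the 24h set), a pairing that comes from the numbers in the titles.

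Members and lists were chosen with earlier results of these data known. Identifiers were printed for the 2 members highest in CPM and for members called in the microglial difference between sets; planned gene and marker lists could not be applied without names.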

Additional observations from a re-analysis of the deposited data

Results flagged for a closer look

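One value stood apart within its group: ENSRNOT00000023977 had 596 CPM in 7D microglia replicate 2, with the gap to the nearest other library taking 0.878 of the group's range, beyond Dixon's 95% critical value for 4 libraries. Of 18 groups of 4 examined, about 1 in 20 would be marked by chance. The same-numbered 7D macrophage library was the highest of its group as well, at 635 CPM.

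Among the named members only, the response of 2 differed between sets by edgeR's test of the difference. For macrophages 9 members were called in all. The rule used the group means in these differences, so they are a description. The 7D sham level of ENSRNOT00000023977 was above its 24h sham level by 1.60 on the log2 scale, while its MCAO libraries of the 2 sets overlapped. Its log2 difference of the 7D minus the 24h response was -1.94 in microglia and -1.99 in macrophages, both set against the same sham libraries. For ENSRNOT00000017271 it was 0.47 in macrophages. Depth and fragment length go together with the set and their part cannot be told apart.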

How the results depend on the processing

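Of 229 alternatives for counts, 196 stayed within 1.5 times the reported count. These include every alternative of the 4 contrasts with sham, at 54 or 55 members. The rule fixed those counts, so they say nothing about how stable the other counts are. The number of members was 36 with 5 added to each mean (34 of the 55 among them), 87 with the 2 libraries of conflicting labels exchanged, and 50 to 61 without single libraries. For the microglial difference between sets, DESeq2 called 6 members and leaving out single libraries gave 1 to 2, with 2 without 24h microglia replicate 2 or 7D sham replicate 1 or 2. For the macrophage difference, 4 were called with no filter on low counts, 4 without both libraries of conflicting labels, 0 with that exchange (1701 transcripts at an unadjusted p under 0.05), and 3 to 10 without single libraries. For sham microglia between sets, limma-voom called 2, DESeq2 11, that exchange gave 1, and single libraries left out gave 0 to 5. Macrophages against microglia in the 24h set gave 9 without both libraries of conflicting labels, 0 with that exchange (123 transcripts at an unadjusted p under 0.05) and 16 to 31 without single libraries. In the 7D set it gave 1 with no filter, 5 by DESeq2 and 0 to 2 without single libraries. Alternatives for the split and for the correlations within groups were chosen after seeing the data: members lower in macrophages in both sets numbered 12 with that exchange and 29 to 33 without single libraries. All 55 were called against sham in each comparison, except 54 in 24h macrophages under some alternatives. The cause of these shifts was not tested.

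With the replicate block, the pairing left 1 member called for the microglial difference, 9 for the macrophage difference, 24 for 24h macrophages against microglia, 3 for 7D macrophages against microglia and 55 in each contrast with sham; it changed no other call. The block also joined each sham library to the MCAO libraries of its number, although these came from other rats. Over transcripts, same-numbered sham and MCAO deviations correlated at -0.147 to 0.309 in the 7D set and -0.0208 to 0.0545 in the 24h set. For sham microglia between sets no block could be fitted, since set and number go together there.

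Of 249 alternatives for the 3 named transcripts, 229 kept direction and side of the threshold, 17 lost the call, 2 gained it and 1 reversed: ENSRNOT00000010180 in the microglial difference, at 0.0702 without 7D sham replicate 3, where leaving out single libraries gave -0.3118 to 0.0702. Its macrophage difference was called by DESeq2 (adjusted p = 0.0463) and without 7D sham replicate 1 (adjusted p = 0.035). For ENSRNOT00000017271, edgeR's adjusted p for the macrophage difference was 0.0545 with no filter, 0.262 with that exchange, 0.0721 without both libraries of conflicting labels, and 0.0601 to 0.076 without 24h macrophage replicate 1 or 3, 24h sham replicate 1 or 3, or 7D sham replicate 1 or 2. Its sham difference was lost at an adjusted p of 0.0628 to 0.0806 without 24h sham replicate 1, 2 or 3 or 7D sham replicate 3, and when the libraries of conflicting labels were exchanged. Depth limits the members scarcest in sham microglia, with as few as 1 count in a sham library.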
